A study of Mus musculus with 7 samples.

Results

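The genes described here are 36 genes of mitosis and cytokinesis, taken as a list of symbols and found by name among the 38924 genes of the count files. All 36 were present, and all 36 were among the 16226 genes with enough reads to be tested. The libraries are mRNA sequencing of mouse fetal liver at 12.5 days post coitum, with 4 libraries labelled wild type (replicates 1 to 4) and 3 labelled PCBP2 knockout (replicates 3 to 5). Pcbp2 encodes a protein that binds C-rich RNA. No strain, allele design, sex, litter or pooling of animals is given in the sources used here, so the p-values rest on spread among libraries that may be technical replicates.

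In a dividing cell, cyclin B and Cdk1 start mitosis, the Aurora and Polo-like kinases shape the spindle, and the kinetochore ties each chromosome to microtubules. The spindle checkpoint holds the anaphase-promoting complex back until every chromosome is attached. That complex then marks cyclin B and securin for destruction, and a contractile ring parts the daughter cells. Most of these genes are transcribed late in the cell cycle, so in a tissue their messenger RNA follows the share of cells in G2 and M phase. The fetal liver at this age is the main blood-forming organ, and its red cell precursors divide while they mature. In bulk tissue, fewer dividing cells and less RNA per dividing cell cannot be told apart.

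Reads assigned to genes numbered between 31898339 and 44544889 per library, and a floor of 3 reads equals 0.0662 to 0.102 CPM, a read count scaled to library size by the TMM method. Pcbp2, the targeted gene, had 165, 329, 347 and 338 CPM in wild type replicates 1 to 4 and 2.24, 1.39 and 2.22 CPM in knockout replicates 3 to 5 (log2 fold change -7.26 ± 0.34, SE; edgeR adjusted p = 1.29e-05). Pcbp2 was far lower in every library labelled knockout than in every library labelled wild type. Wild type replicate 1 held less Pcbp2 than the other wild-type libraries, and the cause was not tested. Wild-type mean levels of the 36 mitotic genes ran from 51.2 to 1532 CPM, and the lowest count of any of them in any library was 1379 reads. Counting error was therefore small beside the spread between libraries.

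Promoters of late cell cycle genes often carry a short element with the letters TTTGAA or TTCGAA close to the start of transcription, bound by the MuvB complex, and CCAAT boxes further upstream, bound by NF-Y. The 5 promoters below are shown because they span the results. Ube2c and Birc5 are the genes that passed the test, and Top2a, Cdk1 and Cdc20 are familiar late cell cycle genes that did not. Each is the 250 bases before the RefSeq start of the gene (assembly GRCm38.p6), read 5′ to 3′ on the strand of the gene. Capitals mark TTTGAA (or TTCAAA on the other strand), TTCGAA, and CCAAT (or ATTGG on the other strand). The Ube2c window is chr2:164769679-164769928 (plus strand), Birc5 is chr11:117848987-117849236 (plus), Top2a is chr11:99024190-99024439 (minus), Cdk1 is chr10:69352913-69353162 (minus) and Cdc20 is chr4:118437344-118437593 (minus).
Ube2c: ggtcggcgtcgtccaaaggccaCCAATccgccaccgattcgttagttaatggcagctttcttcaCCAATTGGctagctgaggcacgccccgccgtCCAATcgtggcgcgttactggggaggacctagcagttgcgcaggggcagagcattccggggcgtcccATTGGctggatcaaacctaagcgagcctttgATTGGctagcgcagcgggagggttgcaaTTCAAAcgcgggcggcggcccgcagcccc
Birc5: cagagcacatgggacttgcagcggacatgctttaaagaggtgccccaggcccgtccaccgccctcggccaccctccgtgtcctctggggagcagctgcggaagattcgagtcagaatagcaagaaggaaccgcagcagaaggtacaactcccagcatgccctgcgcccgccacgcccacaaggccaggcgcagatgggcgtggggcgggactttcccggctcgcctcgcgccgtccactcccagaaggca
Top2a: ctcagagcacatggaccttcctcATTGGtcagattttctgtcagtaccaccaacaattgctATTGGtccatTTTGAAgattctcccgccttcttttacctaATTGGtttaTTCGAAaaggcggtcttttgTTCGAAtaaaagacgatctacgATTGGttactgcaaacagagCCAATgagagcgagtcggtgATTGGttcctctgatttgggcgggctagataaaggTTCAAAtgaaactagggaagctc
Cdk1: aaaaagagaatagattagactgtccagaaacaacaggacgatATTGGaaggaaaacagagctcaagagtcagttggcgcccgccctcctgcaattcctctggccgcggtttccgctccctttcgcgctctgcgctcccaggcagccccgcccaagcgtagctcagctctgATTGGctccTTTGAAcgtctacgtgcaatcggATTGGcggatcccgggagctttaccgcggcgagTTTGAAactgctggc
Cdc20: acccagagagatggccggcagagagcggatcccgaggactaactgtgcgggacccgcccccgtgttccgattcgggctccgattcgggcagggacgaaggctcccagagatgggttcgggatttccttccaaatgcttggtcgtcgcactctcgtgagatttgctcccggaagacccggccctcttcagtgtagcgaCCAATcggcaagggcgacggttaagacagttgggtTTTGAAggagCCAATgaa
Ube2c held 1 TTCAAA, beginning 29 bases before the start, and 6 CCAAT matches, of which a pair on opposite strands overlap. Top2a held 2 TTTGAA and 2 TTCGAA matches, the nearest beginning 23 bases before the start, and 6 CCAAT matches. Cdk1 held TTTGAA at 15 and at 71 bases before the start with 3 CCAAT matches, and Cdc20 held TTTGAA at 18 bases with 2. The Birc5 window held none of these letters.

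In the window from 250 bases before to 50 bases after each RefSeq start, 31 of the 36 genes had an entry, with 33 promoters in all. Aurkb, Ccna2, Incenp, Kif20a and Tpx2 were without one. TTTGAA or TTCGAA occurred in 27 of the 33 (81.8%), against 19.2% of all 32851 promoters searched and 37.4% of the 147 promoters of 120 other mitotic genes. CCAAT occurred in 27 of the 33 (81.8%), against 37.4% of all promoters and 49% of those of other mitotic genes. Both kinds stood together in 72.7% of the 33, against 7.52% of all promoters and 22.4% of those of other mitotic genes. Birc5, Nuf2 and Nusap1 had neither. Matches on either strand were counted, they describe the letters alone, and nothing about binding follows from them.

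Ube2c and Birc5 fell in the knockout livers, and none of the 36 genes rose. They were 2 of 36 genes at an edgeR adjusted p under 0.05, beside 3.43% of all tested genes called lower and 1.59% called higher. At an unadjusted p under 0.05, 6 of the 36 were lower and 0 higher, against 11.8% and 9.98% of all genes. The authors' deposited table called 2 of the 36, where it called 6.86% of all its genes lower and 4.06% higher. DESeq2 called Ube2c and Birc5 lower and none higher, beside 6.65% and 3.88% of all genes. The knockout libraries lay wholly below the wild-type ones for 5 of the 36 (Ube2c, Birc5, Cdk1, Racgap1 and Nek2), against 10.8% of all genes, and wholly above for 0, against 9.83%.

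The remaining differences were small and leaned downward. The log2 fold change was negative for 31 of the 36 genes, compared with 47.9% of all genes, and its median was -0.15, compared with 0.01 for all genes. Single genes ranged from -0.67 to 0.12. The 95% interval left out a 2-fold difference in either direction for 35 of the 36 genes, the exception being Mki67, and left out a 1.5-fold difference for 29. Of all 16226 tested genes, it left out a 2-fold difference for 12347 and a 1.5-fold difference for 8480. Scaling by total counts moved the median of the 36 to -0.02 and that of all genes to 0.14, so that the distance between them stayed nearly the same.

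**Figure D1:**
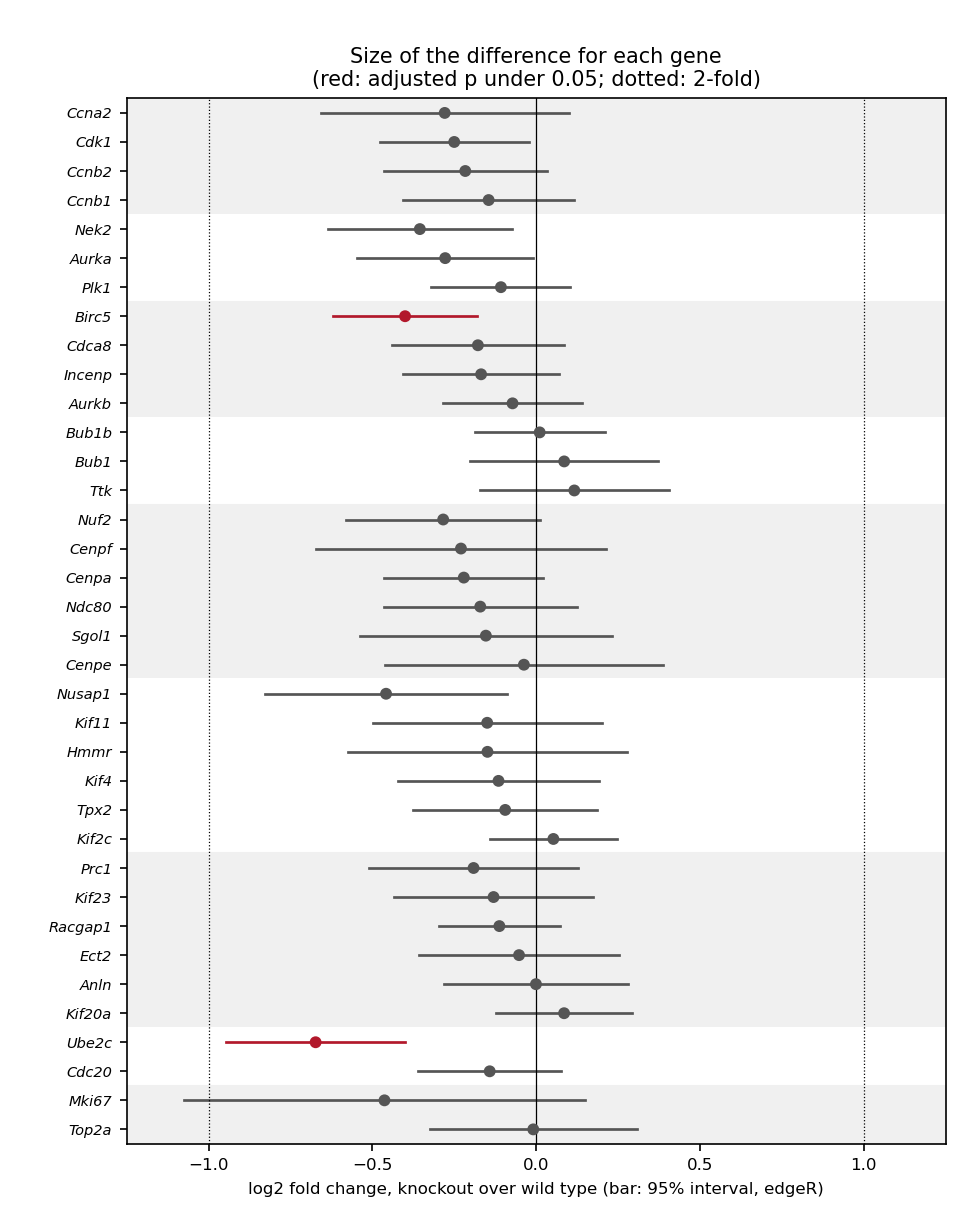
Log2 fold change of each of the 36 genes, knockout over wild type, with its 95% interval from edgeR. Shading groups genes by role, red marks the genes that passed (Ube2c and Birc5), and dotted lines mark 2-fold. From the top, bands run from cyclins and Cdk1 through entry kinases, passenger complex, checkpoint, kinetochore and spindle motors to cytokinesis. Below them come the anaphase-promoting complex partners and the mitotic chromosome proteins. Most points lie left of 0 and most intervals cross it.

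Ube2c, the ubiquitin-conjugating enzyme that works with the anaphase-promoting complex, lies at chr2:164769898-164778822 (plus strand, mm10). Its level was 227, 163, 205 and 189 CPM in wild type replicates 1 to 4 and 136, 115 and 117 CPM in knockout replicates 3 to 5. The groups did not overlap, and the lowest wild-type library stood above the highest knockout library. The mean fell from 196 ± 26.9 (SD, n = 4) to 123 ± 11.5 CPM (SD, n = 3), 1.59-fold, with a log2 fold change of -0.67 ± 0.12 (SE; 95% interval -0.95 to -0.40; edgeR adjusted p = 0.0153). Measured from the median of the other genes among the 36 in the same library, the log2 level of Ube2c stood at 0.65, 0.44, 0.48 and 0.46 in wild type and at 0.01, -0.04 and -0.06 in knockout. The typical gene of the list thus differed less. Ube2c had the lowest log2 fold change of the 36, so this measure is no separate support for its call. The call was lost without knockout replicate 4 (edgeR adjusted p = 0.0600) and without knockout replicate 5 (edgeR adjusted p = 0.0971), and also when a trend with transcript length, described further on, was taken out (0.0825). Cdc20, the activator that brings substrates to the same complex, had 111, 104, 111 and 127 CPM in the wild-type libraries and 95.7, 111 and 101 CPM in those of the knockout (log2 -0.14 ± 0.10, edgeR adjusted p = 0.440), and its groups overlapped.

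Birc5 (survivin), the subunit that docks the chromosomal passenger complex at centromeres, lies at chr11:117849251-117855743 (plus strand, mm10). It measured 195, 153, 177 and 167 CPM in the wild-type libraries and 135, 126 and 132 CPM in those of the knockout. All knockout values lay close together and below every wild-type value. The mean fell 1.32-fold, from 173 ± 17.5 (SD, n = 4) to 131 ± 4.54 CPM (SD, n = 3), a log2 fold change of -0.40 ± 0.10 (SE; 95% interval -0.62 to -0.18; edgeR adjusted p = 0.0475). This call was near the threshold. It was lost when any 1 library other than wild type replicate 2 was left out (edgeR adjusted p from 0.0776 to 0.180), with total-count scaling (edgeR adjusted p = 0.0676), with limma-voom (adjusted p = 0.0546) and with the trend on transcript length taken out (edgeR adjusted p = 0.271). The other passenger subunits did not pass. The kinase Aurkb had a log2 fold change of -0.07 ± 0.10 (edgeR adjusted p = 0.705), the scaffold Incenp -0.17 ± 0.11 (0.395) and borealin, Cdca8, -0.18 ± 0.12 (0.419).

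**Figure D2:**
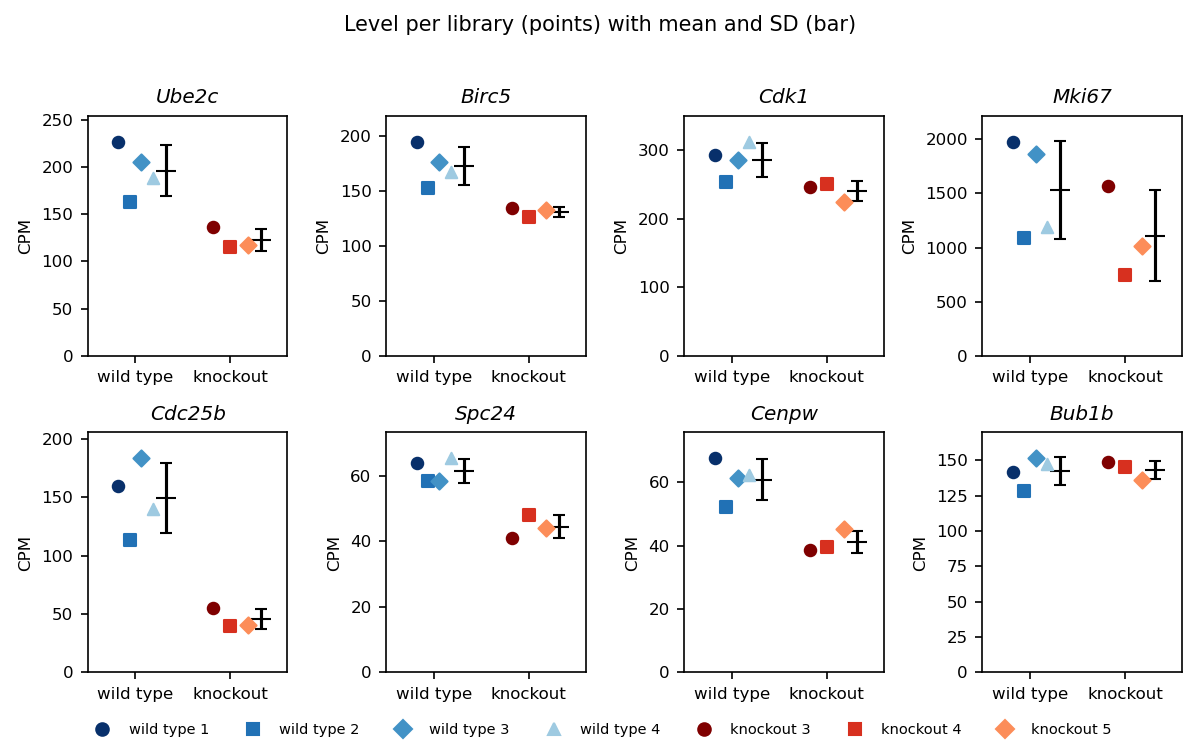
Levels in CPM (linear axis from 0) in each library for 8 genes, with the mean and SD of each group as a bar beside the points. Circle, square, diamond and triangle tell the libraries of a group apart. The knockout points lie below all wild-type points for Ube2c, Birc5, Cdk1, Cdc25b, Spc24 and Cenpw, and overlap them for Mki67 and Bub1b.

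The genes that start mitosis were lower in mean but did not pass. Cdk1, the mitotic kinase, had 293, 253, 286 and 313 CPM in the wild-type libraries and 247, 251 and 224 CPM in those of the knockout (log2 -0.25 ± 0.10, edgeR adjusted p = 0.190). Its groups were separate, by a narrow gap between wild type replicate 2 and knockout replicate 4. Its cyclin partners overlapped between groups, with log2 fold changes of -0.15 ± 0.12 for Ccnb1 (edgeR adjusted p = 0.514), -0.22 ± 0.11 for Ccnb2 (0.291) and -0.28 ± 0.17 for Ccna2 (0.375). Among the entry and centrosome kinases, Nek2, which frees paired centrosomes, had 60.2, 44.2, 57.7 and 47.4 CPM in the wild-type libraries and 44.2, 39.3 and 39.3 CPM in those of the knockout (log2 -0.36 ± 0.13, edgeR adjusted p = 0.135). The highest knockout value of Nek2, 44.15 CPM, all but touched the lowest wild-type one, 44.17 CPM. Aurka, the centrosome and spindle pole kinase, had a log2 fold change of -0.28 ± 0.12 (edgeR adjusted p = 0.215) and Plk1, the Polo-like kinase, -0.11 ± 0.10 (0.556).

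The spindle checkpoint kinases were the 1 role whose fitted differences were all positive, and none passed. Bub1 had a log2 fold change of 0.09 ± 0.13 (edgeR adjusted p = 0.744), Bub1b 0.01 ± 0.09 (0.961) and Ttk 0.12 ± 0.13 (0.651). Bub1b, which restrains Cdc20, measured 142, 129, 151 and 147 CPM in the wild-type libraries and 149, 145 and 136 CPM in those of the knockout, among the most even of the list. Signs of Bub1 and Bub1b turned under some alternatives, Bub1 in 1 of 16 and Bub1b in 4 of 16.

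The 6 centromere and kinetochore genes all had negative log2 fold changes with a median of -0.20, and none passed. Nuf2 and Ndc80, partners in the complex that grips microtubules, had -0.28 ± 0.13 (edgeR adjusted p = 0.250) and -0.17 ± 0.13 (0.496). Cenpa, the centromeric histone H3 variant, had -0.22 ± 0.11 (edgeR adjusted p = 0.271). Cenpf, a large outer kinetochore protein, had -0.23 ± 0.20 (edgeR adjusted p = 0.546), Cenpe, a kinetochore motor, -0.04 ± 0.19 (0.933) and Sgol1, which protects centromeric cohesin, -0.15 ± 0.17 (0.654).

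Of the 6 spindle motors and microtubule binders, 5 had negative log2 fold changes. Nusap1, which bundles spindle microtubules, had 271, 174, 214 and 205 CPM in the wild-type libraries and 189, 127 and 155 CPM in those of the knockout (log2 -0.46 ± 0.17, edgeR adjusted p = 0.142). Wild type replicate 2 fell below knockout replicate 3, so the groups overlapped. The kinesins Kif11, which pushes the spindle poles apart, and Kif4, which binds chromosome arms, had -0.15 ± 0.16 (edgeR adjusted p = 0.626) and -0.12 ± 0.14 (0.674). Tpx2, the activator of Aurka, had -0.09 ± 0.13 (edgeR adjusted p = 0.710), Hmmr, a spindle protein, -0.15 ± 0.19 (0.700) and Kif2c, a microtubule depolymerase, 0.05 ± 0.09 (0.772).

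The 6 cytokinesis genes lay nearest to no difference among the roles below 0, with a median log2 fold change of -0.08. Racgap1 and Kif23, which form centralspindlin, had -0.11 ± 0.08 (edgeR adjusted p = 0.470) and -0.13 ± 0.14 (0.625). Racgap1 measured 186, 170, 176 and 177 CPM in the wild-type libraries and 167, 168 and 156 CPM in those of the knockout, groups that were separate by a small gap. Prc1, which cross-links midzone microtubules, had -0.19 ± 0.14 (edgeR adjusted p = 0.480), Ect2, the exchange factor for RhoA, -0.05 ± 0.14 (0.861), Anln, a scaffold of the contractile ring, -0.00 ± 0.13 (0.997) and Kif20a, a midzone kinesin, 0.08 ± 0.09 (0.645).

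The mitotic chromosome proteins differed from each other. Mki67, the proliferation antigen that coats mitotic chromosomes, had 1978, 1093, 1867 and 1190.4 CPM in the wild-type libraries and 1569, 746 and 1019 CPM in those of the knockout. It spanned 2.65-fold over the 7 libraries, the widest range of the 36 genes, and its groups overlapped (log2 -0.46 ± 0.28, edgeR adjusted p = 0.364). Top2a, which untangles sister DNA, had 913, 689.5, 889 and 768 CPM in the wild-type libraries and 948, 694 and 787 CPM in those of the knockout. Its group means, 815 ± 105 (SD, n = 4) and 810 ± 129 CPM (SD, n = 3), were nearly equal (log2 -0.01 ± 0.14, edgeR adjusted p = 0.978).

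**Figure D3:**
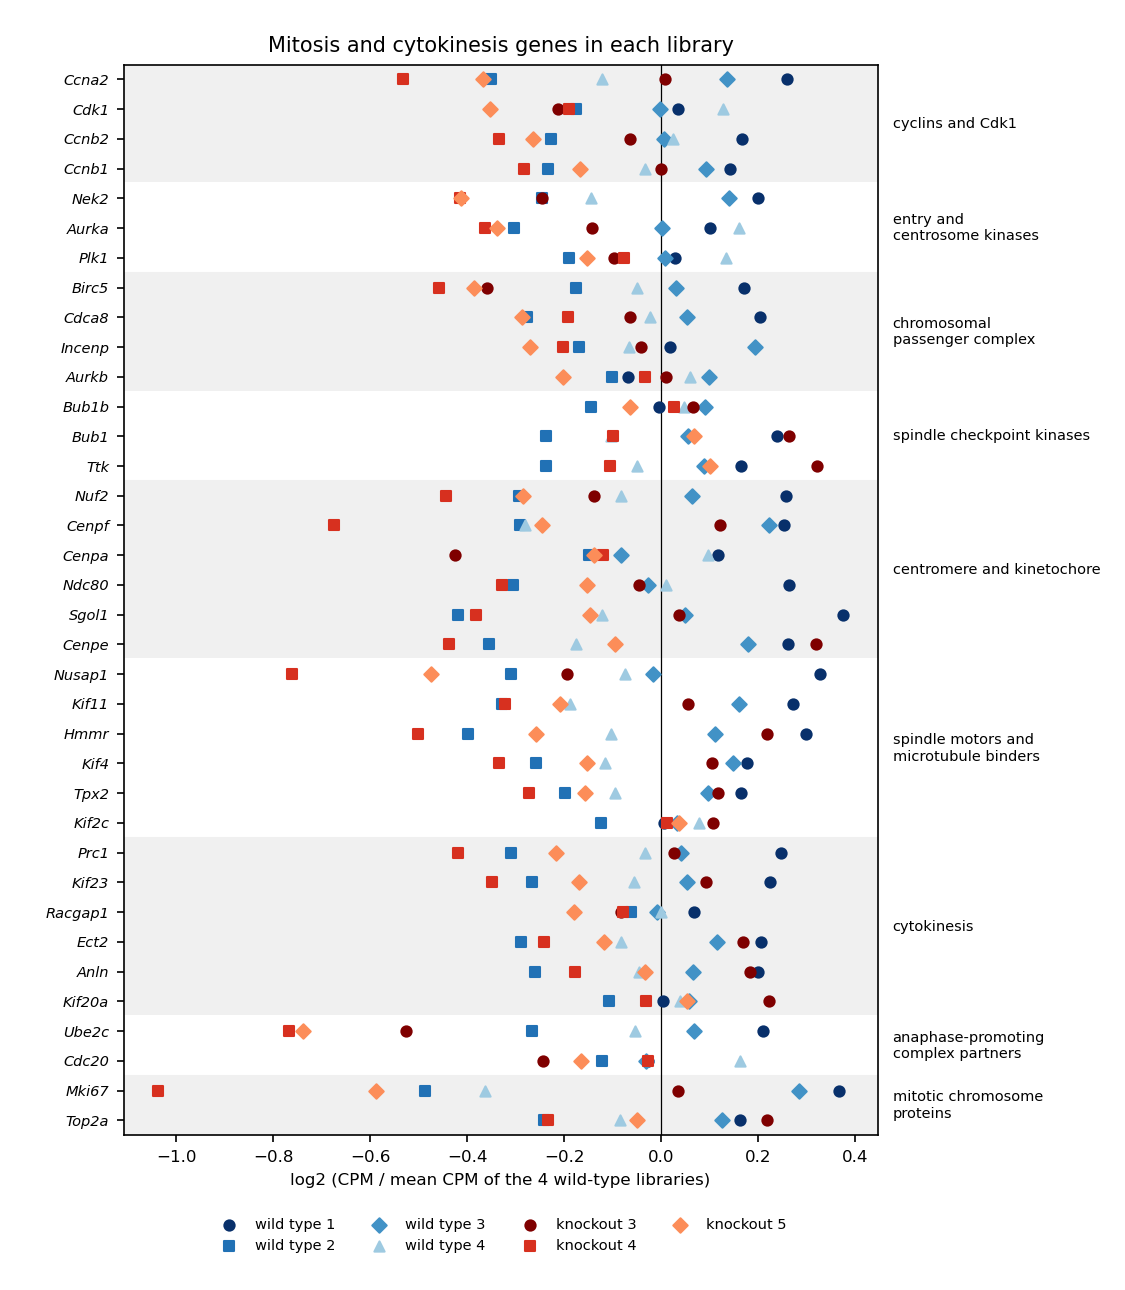
Level of each of the 36 genes in each library as log2 of CPM over the mean of the 4 wild-type libraries, with genes grouped by role. Wild type replicate 2 (blue square) is the leftmost wild-type point in all 36 rows, and knockout replicate 3 (dark red circle) is the rightmost knockout point in 31.

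Libraries of the same group differed together. Wild type replicate 2 had the lowest wild-type level of all 36 genes, compared with 29.2% of all tested genes, and wild type replicate 1 had the highest of 27. Knockout replicate 3 had the highest knockout level of 31 genes, compared with 39.6% of all genes, and knockout replicate 4 the lowest of 27, compared with 35%. Summed over the list, the level was 8676, 6101, 8149 and 6933 CPM in the wild-type libraries and 7614, 5561 and 6191 CPM in those of the knockout. These sums overlap, since knockout replicate 3 lay above wild type replicates 2 and 4. The median log2 fold change of the list moved to -0.24 when wild type replicate 2 or knockout replicate 3 was left out, and to -0.09 when knockout replicate 4 was.

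Red cell markers ordered the wild-type libraries in the same way. Their 12 genes had a median log2 level, over the wild-type mean, of 0.35, -0.55, 0.25 and -0.15 in wild type, where the 36 mitotic genes had 0.19, -0.25, 0.06 and -0.05. The order was not particular to red cell markers, since DNA replication genes, taken up below, had it too. Wild type replicate 2 was also lowest for hepatoblast markers (-0.54), but highest for macrophage (0.08) and mesenchyme markers (0.28). In knockout the red cell markers stood at -0.85, -1.63 and -1.20 and the mitotic genes at 0.02, -0.30 and -0.17. Of the 12 red cell markers 8 fell and 0 rose in edgeR, beside 3.43% of all tested genes called lower and 1.59% called higher. Their summed levels ran from 45242 to 75568 CPM in wild type and from 11585 to 15270 CPM in knockout. None was at 0 in any library. The distance between groups was thus far larger for red cell markers than for mitotic genes. Their part in the fall of Ube2c and Birc5 was not tested.

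Markers of other cells were counted in the same fit, where 3.43% of all tested genes were called lower and 1.59% higher. Of 9 megakaryocyte markers 8 fell, with summed levels from 367 to 487 CPM in wild type and from 219.8 to 229 in knockout. Of 9 tested macrophage markers 6 fell, from sums of 261 to 304 CPM down to 172 to 216. Of 10 endothelial markers 3 rose, from sums of 263 to 346 CPM up to 356 to 437. These sums did not overlap between groups. Among 12 hepatoblast markers 0 passed, with summed levels from 6162 to 12921 CPM in wild type and from 7709 to 9932 CPM in knockout. Of 10 stem and progenitor markers 2 fell, of 10 mesenchyme markers 1 rose and 1 fell, and of 9 tested heart and skeletal muscle markers 2 rose. The muscle sums were 80.4 to 162 CPM in wild type and 88.3 to 362 CPM in knockout, highest in knockout replicate 3, and 1 muscle marker was at 0 in wild type replicate 3. The part of these cells in the mitotic genes was not tested.

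**Figure D4:**
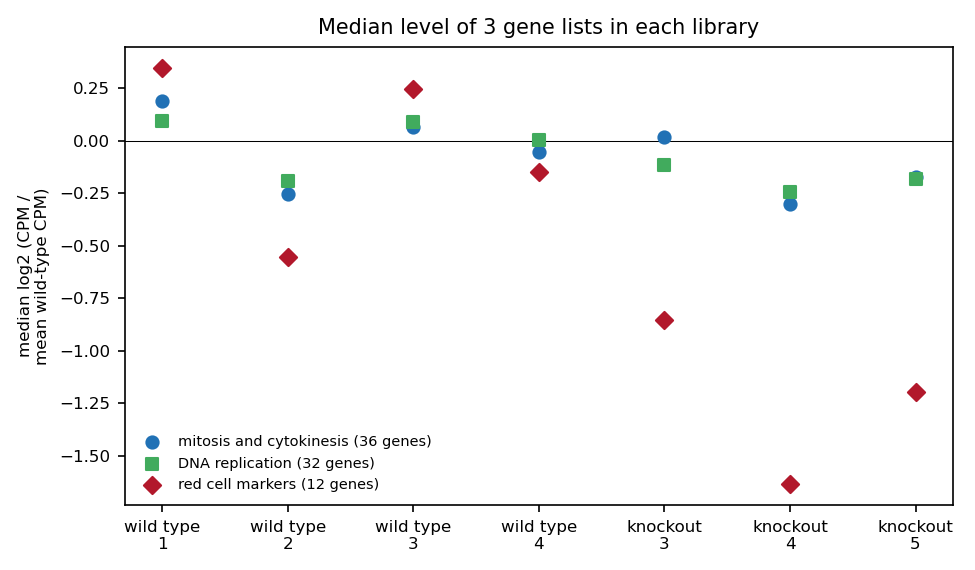
Median log2 level of the 36 mitosis and cytokinesis genes, 32 DNA replication genes and 12 red cell markers in each library, over the mean of the 4 wild-type libraries. The mitotic medians of the groups overlap, while the red cell medians of all knockout libraries lie below those of all wild-type libraries.

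DNA replication genes, which act in the S phase before mitosis, gave a similar picture. Of 32 genes 0 passed in edgeR in either direction, beside 3.43% of all tested genes called lower and 1.59% called higher. At an unadjusted p under 0.05, 9 were lower and 0 higher, against 11.8% and 9.98% of all genes. The log2 fold change was negative for 29, compared with 47.9% of all genes, and its median was -0.17. The smallest p belonged to Rrm2, a subunit of ribonucleotide reductase, at 421 CPM in the wild-type libraries and 274 CPM in those of the knockout (log2 -0.62 ± 0.18, edgeR adjusted p = 0.0826). The authors' deposited table called 2 of these 32 genes, Rrm2 and Tyms, both lower. It called 6.86% of all its genes lower and 4.06% higher.

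Among 142 other mitotic genes Cdc25b, Cenpw and Spc24 fell and 0 rose in edgeR, beside 3.43% of all tested genes called lower and 1.59% called higher. At an unadjusted p under 0.05, 24 of the 142 were lower and 3 higher, against 11.8% and 9.98% of all genes. Their median log2 fold change was -0.09. Cdc25b is a phosphatase that switches Cdk1 on, and it lies at chr2:131186949-131198497 (plus strand, mm10). It had 160, 114, 184 and 140.2 CPM in the wild-type libraries and 55.4, 40.2 and 40.7 CPM in those of the knockout. Every knockout value was less than the lowest wild-type value by a wide margin. The mean fell 3.29-fold, from 149 ± 29.8 (SD, n = 4) to 45.4 ± 8.61 CPM (SD, n = 3), with a log2 fold change of -1.72 ± 0.18 (SE; edgeR adjusted p = 0.00156), and it passed in all 16 alternatives. Its relatives did not pass. Cdc25a had a log2 fold change of -0.07 ± 0.09 (edgeR adjusted p = 0.712) and Cdc25c -0.22 ± 0.11 (0.267).

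Both other calls were kinetochore genes. Cenpw, the histone-fold partner of Cenpt, had 67.6, 52.2, 61.5 and 62.3 CPM in the wild-type libraries and 38.7, 39.6 and 45.3 CPM in those of the knockout (log2 -0.56 ± 0.11, edgeR adjusted p = 0.0223). Spc24, which joins the Ndc80 complex to the inner kinetochore, had 63.9, 58.5, 58.4 and 65.4 CPM in the wild-type libraries and 41.2, 48.1 and 44.1 CPM in those of the knockout (log2 -0.47 ± 0.10, edgeR adjusted p = 0.0250). Neither overlapped between groups. The call of Cenpw was lost without wild type replicate 3 or 4 or any 1 of the knockout libraries (edgeR adjusted p from 0.0554 to 0.0749). That of Spc24 was lost on leaving out any 1 library other than wild type replicate 2 and knockout replicate 4 (edgeR adjusted p from 0.0502 to 0.127), and under total-count scaling (0.0673). Hjurp, the chaperone of Cenpa, had a positive log2 fold change of 0.31 ± 0.10 and did not pass (edgeR adjusted p = 0.105), although all its knockout values lay above the wild-type ones. In the whole kinetochore list of 28 genes, 2 fell, 0 rose and the median was -0.14. Over all tested genes, 3.43% were called lower and 1.59% higher.

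The lists of other mitotic genes held no further calls in edgeR. The authors' deposited table called 8 of the 142, among them Hjurp as higher, where it called 6.86% of all its genes lower and 4.06% higher. For condensin, which compacts chromosomes, all 8 log2 fold changes were negative with a median of -0.14, and Ncaph2 (-0.19), Ncapg2 (-0.23) and Ncapd3 (-0.18) had the smallest p. For cohesin and separase 7 of 14 were negative, and Pds5b (0.25), Cdca5 (-0.20) and Pttg1, securin (-0.34), led. For checkpoint genes outside the list Mad1l1 and Mad2l1bp came nearest to a call (log2 -0.39 and -0.40, edgeR adjusted p = 0.0569 and 0.0649), ahead of Mad2l1 (-0.17). In the anaphase-promoting complex 10 of 15 were negative, led by Fzr1 (-0.32), Ube2s (-0.29) and Fbxo5 (-0.38). Among 12 genes that control Cdk1, Ccnf (-0.27) and Ensa (-0.23) followed Cdc25b.

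Of 13 genes of mitotic transcription 11 were negative, with a median log2 fold change of -0.06. Mybl2, the MYB protein that joins MuvB, had -0.36 ± 0.12 (edgeR adjusted p = 0.104), E2f4 -0.31 and Rbl2 -0.17, and Foxm1, the forkhead activator of late cell cycle genes, had 0.02 ± 0.10 (0.930). Of 26 other spindle genes 18 were negative with a median of -0.12, led by Nde1 (-0.29), Knstrn (-0.29) and Haus4 (-0.23). For centriole duplication, with Stil (-0.16), Cep120 (0.10) and Cep192 (0.13), the median was 0.01, and for other cytokinesis genes, with Arhgef2 (0.23), Chmp4b (-0.16) and Cit (-0.36), it was 0.07.

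Per kilobase of the principal transcript, the most abundant of the 36 genes in wild type were Ube2c at 203 ± 27.8 and Birc5 at 183 ± 18.5 CPM per kb (SD, n = 4), followed by Top2a at 156 ± 20.1 and Mki67 at 152 ± 45.2. The SDs of each neighbouring pair overlapped. In knockout Top2a came first at 155 ± 24.7 (SD, n = 3), then Birc5 at 138 ± 4.80, Ube2c at 127 ± 11.9, Ccna2 at 112 ± 22.2 and Mki67 at 110.5 ± 41.7 CPM per kb. The lowest in wild type were Cenpf at 15.9 ± 3.31, Nek2 at 16.2 ± 2.41 and Ttk at 17.8 ± 2.13 CPM per kb, which were not apart beyond their spread.

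Transcript length moved with the size of the difference. Birc5 at 947 bases and Ube2c at 967 bases have the shortest principal transcripts of the 36 genes. Among all genes at 20 CPM or more in wild type, the 441 with transcripts up to 1000 bases had a median log2 fold change of -0.28, with 75 called lower, and the 1185 above 6000 bases had a median of 0.09. Over genes, Spearman's rho between length and log2 fold change was 0.30 for the 36 genes, 0.36 for the 142 other mitotic genes and 0.18 for 16075 genes, a description over genes that share the same 7 libraries. With this trend taken out of each library, an alternative chosen after seeing the data, Ube2c had a log2 fold change of -0.50 (edgeR adjusted p = 0.0825) and Birc5 -0.23 (edgeR adjusted p = 0.271), and neither passed. Cdc25b, Cenpw and Spc24 still passed, and Mad1l1 passed in addition.

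**Figure D5:**
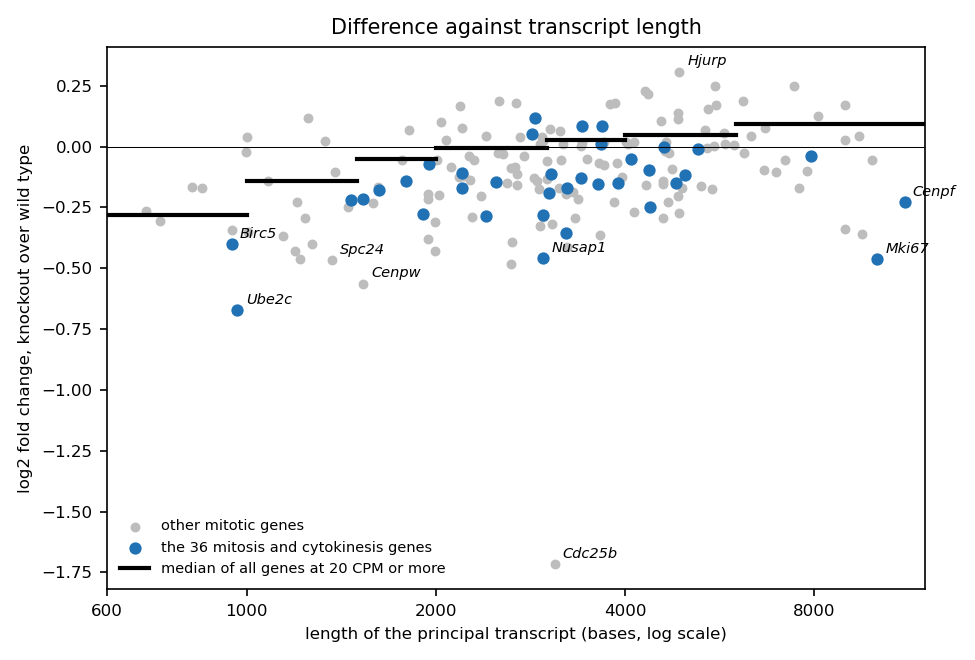
Log2 fold change against the length of the principal transcript (log axis) for the 36 genes (blue) and 142 other mitotic genes (grey). Black lines give the median of all genes at 20 CPM or more in each length class, from -0.28 for the shortest to 0.09 for the longest, and the outer classes run on beyond the axis.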

How the data were processed

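Messenger RNA of fetal liver was sequenced in 7 libraries. Per the submitters' processing notes, the build was mm10 and the tools were DESeq, DESeq2, HTSeq, TopHat2 and cutadapt 1.4.2. Tool settings, use of strand in counting and annotation release were not given in the sources used here. As files, the authors deposited raw counts of reads by gene, and HTSeq lines on unassigned reads were left out of library sizes. Reads in no gene made up 4.89 to 5.94% of reads in wild type and 6.75 to 7.61% in knockout, without overlap. Reads without a unique alignment made up 15.2 to 19.6% in wild type and 11.3 to 14.7% in knockout, also without overlap. The part of these reads in the results was not tested. In the table the authors deposited, per its file headers, the mean normalized signal, the log2 fold change, the Wald score and the p-value of each gene are given. It was used for gene names and for its calls.

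Counts were filtered with filterByExpr, scaled by TMM and fitted in R 4.3.3 with edgeR 4.0.16 (quasi-likelihood test, group as the only term, Benjamini-Hochberg over 16226 genes, called at an adjusted p under 0.05). The fit was tested on simulated data. SEs are the log2 fold change over the root of F, and intervals are at 95%. Alternatives used DESeq2 1.42.0, limma 3.58.1 and the settings named under the closing section. Transcript lengths and gene coordinates come from GENCODE M21 (mm10), joined by identifier without version, for 16075 of the tested genes, and promoters from RefSeq.

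All 36 genes are named, with, from each of 10 lists of other mitotic genes, up to 3 with the smallest p and any that passed. Cdc25a, Cdc25c, Foxm1 and Rrm2 were added after their values were seen. The 36 genes and all lists were chosen with earlier results of these data known.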

Additional observations from a re-analysis of the deposited data

Results flagged for a closer look

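Pcbp2 in wild type replicate 1 stood at 164.8 CPM, far below the 329, 338 and 347 CPM of the other wild-type libraries. The gap to the nearest of them was 0.899 of the range of the group, above the critical value of Dixon's test for 4 libraries. Of 40 genes tested in this way 1 stood out, and chance alone gives about 1 in 20. None of the 36 mitotic genes did.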

How the results depend on the processing

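The number of the 36 genes that fell was 2 as reported, 1 under total-count scaling, 1 under limma-voom, 0 once the length trend was taken out and 4 under the replicate block, where 2.42%, 3.2%, 3.02% and 7.42% of all genes were called lower. It ranged from 0 to 2 when single libraries were left out (0.706 to 4.73% of all genes), and was 0 when knockout replicate 4 or 5 was missing. None rose in any of the 16 alternatives. Their median log2 fold change stayed negative throughout, from -0.24 to -0.09 with single libraries left out and -0.02 with total-count scaling. Of the 36 genes 24 kept their sign in all alternatives and 12 did not. Of the 142 other mitotic genes, 2 rose with total-count scaling (Hjurp and Pds5b) and 1 with DESeq2 (Hjurp). All genes called higher made up 4.01% and 3.88% in those settings. The number that fell was 3 as reported, 8 with DESeq2 and 21 with the replicate block. All genes called lower made up 3.43%, 6.65% and 7.42% in those settings. With single libraries left out, 1 to 8 of the 142 fell, beside 0.706 to 4.73% of all genes. The 8 came when wild type replicate 2 was missing, beside 4.73%. Over all genes 814 passed as reported, 1674 with DESeq2, 2056 with the replicate block and 140 to 1171 with single libraries left out. The replicate block drew its difference from the libraries numbered 3 and 4 alone, as described below. Total-count scaling turned 258 higher and 556 lower into 651 and 393. The cause of these changes was not tested.

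Replicate numbers 3 and 4 are shared by the groups, but no label tells what a number marks. Deviations of same-numbered libraries correlated at 0.32 (number 3) and 0.26 (number 4), and those of the other 10 pairings of a wild-type with a knockout library at -0.33 to 0.15. With 2 such pairs and no label on their meaning, whether the numbers pair the libraries was not settled. The replicate block fitted a term for each replicate number, so its difference between groups rested on numbers 3 and 4 alone. Every other number occurs in a single group, and its library adds nothing to that difference. In this setting Aurka (edgeR adjusted p = 0.0361) and Nusap1 (edgeR adjusted p = 0.0113) joined the calls. Counts of at least 1379 reads do not limit the 36 genes, but the number of libraries limits how small a difference can pass.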
